A study of Bos taurus with 12 samples.

Results

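Interferon-stimulated genes were followed in captured stroma and epithelium of the bovine mammary gland. The genes were ISG15, MX1, MX2, IFI6, RSAD2, IFIT2, IRF1, IRF7 and IFI27, and every probe set whose single gene symbol in the probe annotation was one of these 9 was taken. This gave 8 genes of the 9155 genes that have such a probe set, in 10 probe sets, with 3 probe sets for IRF7 and 1 for each of the other 7 genes. IRF1 had no probe set with that single symbol and was not analysed here. The samples were intralobular stroma and intralobular epithelium, cut by laser from frozen sections of the same explants of 6 non-lactating pregnant Holstein cows. The biopsies were taken 3 weeks before calving, and every explant spent 2 h in culture with BrdU, insulin and hydrocortisone, so both tissues share this exposure. Each capture was amplified and hybridized to its own Bovine GeneChip, which gave 6 stroma and 6 epithelium arrays. The labels record lactation number 3 for cow 1, 2 for cow 2 and 1 for the other 4 cows, whereas the methods call all of them multiparous, and the numbers were used in no comparison. Intralobular stroma is a mixture of cell types. The captures aimed at fibroblasts, and lysates of several slides were pooled for each sample. Values are log2 RMA intensities, and differences are stroma minus epithelium within a cow.

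Interferons are secreted when a cell senses viral nucleic acid or another danger signal. They bind receptors on neighbouring cells and, through JAK kinases, switch on a shared set of genes whose products block viral entry, translation and release. In ruminants the same genes also respond to interferon tau, a type I interferon that the early conceptus secretes, and ISG15 and the MX genes are well known for this response in bovine endometrium and blood cells.

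The captures carried the markers of their labels. All 14 of 14 tested fibroblast markers were higher in stroma, and 14 of 16 luminal epithelial markers were higher in epithelium (limma, adjusted p under 0.05). The mean over the fibroblast markers ran from 8.81 to 9.72 in stroma and from 3.30 to 5.47 in epithelium. Other cell types moved with the tissue as well. All 3 tested B and plasma cell markers were higher in stroma, with a mean of 8.57 to 10.7 in stroma and 2.91 to 4.98 in epithelium. Of 7 endothelial markers, 5 were higher in stroma. Of 7 monocyte and macrophage markers, 1 was higher in stroma (MSR1, a scavenger receptor), and their mean lay between 5.22 and 6.71 in stroma and between 4.04 and 4.80 in epithelium. None of 6 T and NK cell markers or of 8 markers of all leukocytes passed in either direction (1 and 0 at an unadjusted p under 0.05). The mean over the 24 probe sets for polyadenylated control RNA ran from 4.15 to 11.0 in stroma and 3.07 to 6.58 in epithelium and was highest in the stroma of cows 5 and 6. In bulk captures, fewer cells of a type and less RNA per cell cannot be told apart.

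Most of the interferon-stimulated genes were dim in both tissues. The medians of the 12 arrays lay between 2.95 and 3.08, and for 4 of the 10 probe sets (MX2, RSAD2, IFIT2 and 1 of IRF7) the means of both tissues were below the lowest of these medians, and their signs carry no direction. Tests were run on the brightest probe sets, about as many as the study kept, and 4 of the 10 were among them, for IFI27, IFI6 and IRF7. The other 6, of ISG15, MX1, MX2, RSAD2, IFIT2 and IRF7, fell outside the tested set, and their values come from a limma fit to all 24016 probe sets that are not controls. On its own array, the probe set of RSAD2 stood on average at percentile 31.1 in stroma and 24.3 in epithelium, and the brightest probe set of IRF7 at percentile 75.1 in stroma and 69.9 in epithelium.

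**Figure D1:**
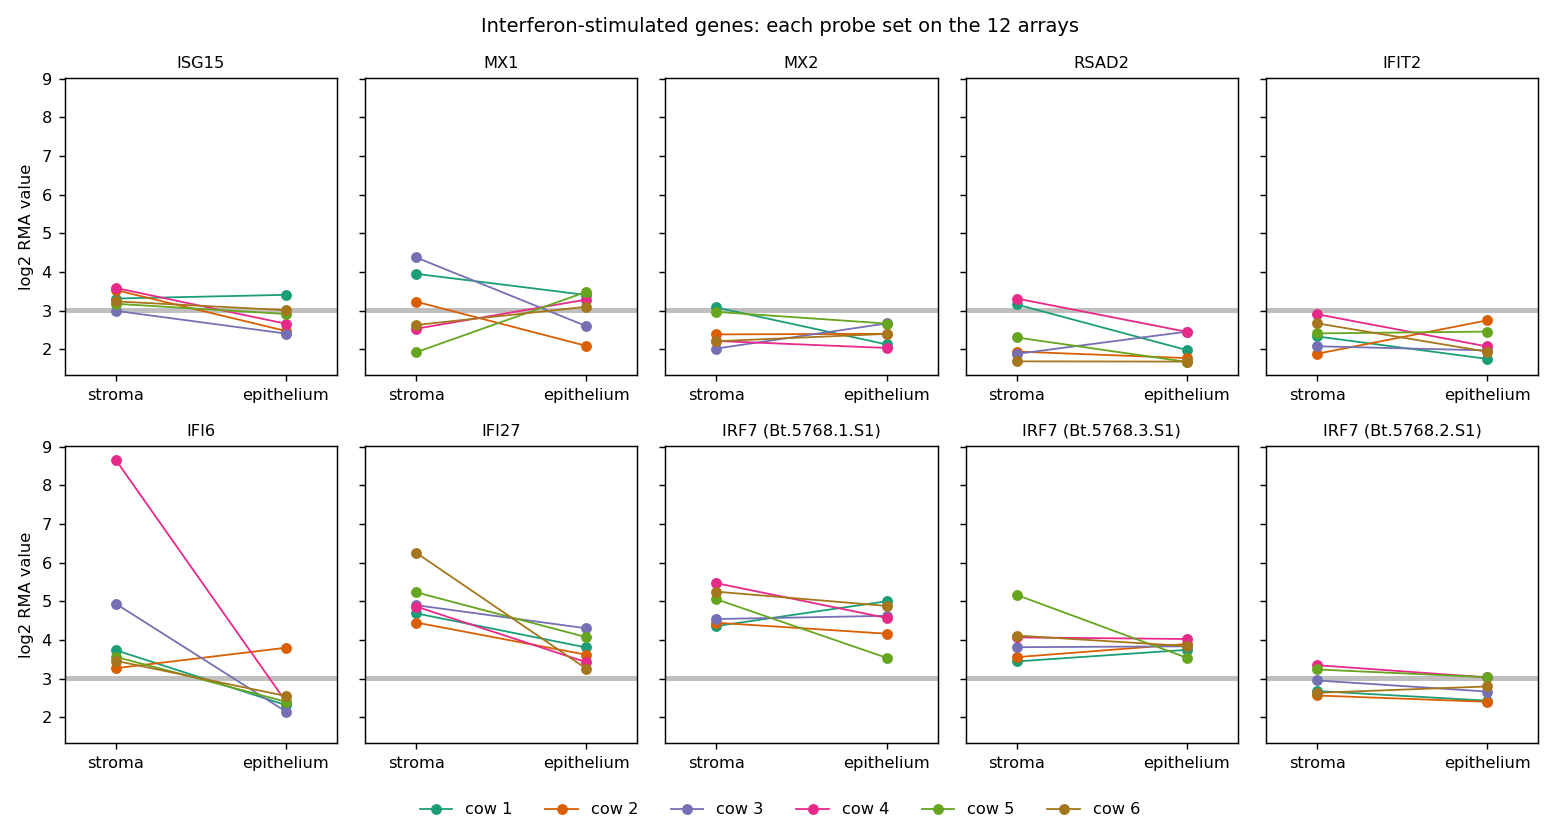
Log2 RMA value (vertical axis) of each of the 10 probe sets in stroma and epithelium. Points are arrays, lines connect stroma and epithelium of the same animal, and the grey band spans the medians of the 12 arrays (2.95 to 3.08). All stroma points of IFI27 lie above all its epithelium points, and 1 stroma point of IFI6, that of cow 4, stands at 8.66.

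IFI27 and IFI6 encode small hydrophobic proteins of one family that sit in membranes of mitochondria and other organelles. IFI27 measured 4.69, 4.45, 4.90, 4.87, 5.23 and 6.26 in the stroma of cows 1 to 6, and 3.81, 3.62, 4.30, 3.43, 4.07 and 3.26 in their epithelium. Every stroma array lay above every epithelium array, which held for 3.39% of the tested probe sets. The mean was 5.07 ± 0.64 in stroma and 3.75 ± 0.39 in epithelium (SD, n = 6 each). The difference was 1.32 (standard error 0.41, 95% interval 0.39 to 2.24), or 2.49-fold, and was positive in all 6 cows, as for 7.04% of the tested probe sets. It did not pass the threshold of 0.05 with cow as a block (limma, adjusted p = 0.0829) and passed when tissue was the sole term, as in the methods of the study (adjusted p = 0.0364), or with cow as a random block (adjusted p = 0.0276). The difference was smallest in cow 3, at 0.60, and largest in cow 6, at 3.00, whose stroma was the brightest and whose epithelium was the dimmest of all 12 arrays for this gene. Without cow 6 it was 0.98 (adjusted p = 0.170). Stromal control RNA was also high in cow 6, at 10.4. The 3 prime minus 5 prime GAPDH signal, a measure related to RNA integrity, was 4.75 in its stroma, the highest of the 12 arrays, and 2.30 in its epithelium. It is a gap between log2 RMA values of different probe sets, not the 3 prime to 5 prime GAPDH ratio of the study. The study reports low values of that ratio and high RNA integrity numbers for its samples. Over the 6 cows the GAPDH gap was higher in stroma in 5. The fibroblast, endothelial and B and plasma cell markers separated the tissues as well. The part of control RNA, RNA integrity and cell types in the IFI27 values was not tested.

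IFI6 measured 3.74, 3.27, 4.94, 8.66, 3.56 and 3.46 in the stroma of cows 1 to 6, and 2.32, 3.80, 2.15, 2.41, 2.41 and 2.55 in their epithelium. The stroma of cow 4 stood far above the rest, and the groups overlapped because the epithelium of cow 2 exceeded 4 of the stroma arrays. The mean was 4.61 ± 2.07 in stroma and 2.61 ± 0.60 in epithelium (SD, n = 6 each). The difference was 2.00 (standard error 0.78, 95% interval 0.23 to 3.77), positive in 5 of 6 cows, and did not pass (limma, adjusted p = 0.161, or 0.273 with no filter). IFI6 was in the tested set only through its stroma. Its mean over the 12 arrays was 3.61, beside a lowest tested mean of 3.57, and was 3.15 without the stroma of cow 4. Without cow 4 the difference was 1.15 (adjusted p = 0.265). The epithelial mean lay under the array medians, and no fold is given. The epithelial marker mean of the stroma of cow 4, 5.22, was the highest of the 6 stroma arrays, while its control RNA, at 9.07, was the third highest and its fibroblast marker mean, at 9.39, the second highest. Their part in the IFI6 value was not tested.

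IRF7, the transcription factor that amplifies production of type I interferon, showed no difference between the tissues that exceeded the spread of the cows, though its intervals were wide. Its brightest probe set measured 4.36, 4.45, 4.54, 5.47, 5.05 and 5.25 in the stroma of cows 1 to 6, and 5.00, 4.16, 4.63, 4.57, 3.54 and 4.88 in their epithelium. The groups overlapped widely, and stroma was the brighter tissue in 4 of 6 cows. The difference was 0.39 (standard error 0.38, 95% interval -0.48 to 1.26, limma adjusted p = 0.586). It was 0.17 without cow 5 and 0.12 without cows 5 and 6. The second probe set gave 0.21 (95% interval -0.65 to 1.07, adjusted p = 0.780), and this rested on cow 5, whose stroma measured 5.17 against 3.45 to 4.12 in the other stroma arrays and 3.54 to 4.03 in epithelium. Without cow 5 the difference was -0.07. The third, outside the tested set, ran from 2.57 to 3.35 in stroma and from 2.40 to 3.04 in epithelium. Over the 12 arrays, the brightest probe set correlated with the second at Pearson r = 0.51 and with the third at r = 0.21, as a description of probe sets that share their samples.

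ISG15 encodes a ubiquitin-like protein that is joined to other proteins after interferon. It measured 3.32, 3.54, 3.00, 3.59, 3.18 and 3.24 in the stroma of cows 1 to 6, and 3.41, 2.48, 2.41, 2.66, 2.92 and 3.02 in their epithelium. All values lay close to the array medians, and epithelium was the brighter tissue in cow 1 alone. The difference was 0.49 (standard error 0.22, 95% interval -0.03 to 1.02) and did not pass (limma fit of all 24016 probe sets, adjusted p = 0.318).

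MX1 and MX2 encode dynamin-like GTPases that block the replication of viruses. MX1 measured 3.96, 3.24, 4.38, 2.54, 1.93 and 2.63 in the stroma of cows 1 to 6, and 3.41, 2.09, 2.60, 3.29, 3.49 and 3.10 in their epithelium. Stroma was the brighter tissue in cows 1, 2 and 3 and the dimmer one in cows 4, 5 and 6, with differences within a cow from -1.56 to 1.77. The mean difference was 0.11 (standard error 0.46, 95% interval -0.96 to 1.18, limma adjusted p = 0.922), and was below 0 without cow 2 (-0.09) or cow 3 (-0.22). The control RNA in stroma was also lower in cows 1, 2 and 3, at 4.28, 4.15 and 7.10, than in cows 4, 5 and 6, at 9.07, 11.0 and 10.4, and its part in the MX1 values was not tested. MX2 stayed between 2.02 and 3.09 in stroma and between 2.04 and 2.67 in epithelium, and its difference was 0.10 (95% interval -0.48 to 0.67), or -0.07 without cow 1.

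RSAD2, the enzyme viperin that makes a chain-terminating nucleotide, ran from 1.69 to 3.32 in stroma and from 1.68 to 2.46 in epithelium. The stroma arrays above 3 were those of cows 1 and 4, at 3.16 and 3.32. IFIT2, a protein of the tetratricopeptide family that binds foreign RNA, ran from 1.89 to 2.91 in stroma and from 1.76 to 2.75 in epithelium. The tissues overlapped for both genes, and the adjusted p values were 0.526 for RSAD2 and 0.712 for IFIT2 (limma fit of all 24016 probe sets).

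Of the 4 tested member probe sets, 0 passed in stroma and 0 in epithelium (limma with cow as a block, adjusted p under 0.05), where 4.54% of all tested probe sets passed in stroma and 4.76% in epithelium. At an unadjusted p under 0.05 there were 2 of the 4, IFI27 and IFI6, where 8.88% of all tested probe sets had the larger mean in stroma and 14.6% in epithelium. Nothing is read from this count, since IFI6 entered the tested set through the tissue in which it was bright. With tissue as the sole term, 1 of the 4 passed in stroma (IFI27), where 4.8% of the tested probe sets passed in stroma and 4.61% in epithelium. Of the 6 outside, 0 passed (0 at an unadjusted p under 0.05), where 1.76% of 24016 probe sets passed in stroma and 1.62% in epithelium (8.07% and 8.95% unadjusted). The median difference of the 10 probe sets was 0.30, and that of all 24016 was 0.07. The 10 include the 4 whose means were both below the array medians. Over the tested probe sets the median was -0.18, and subtracting from every array the median over its tested probe sets moved it to -0.01. With 6 cows the intervals were wide, and a p that misses the threshold does not show that the tissues were alike.

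**Figure D2:**
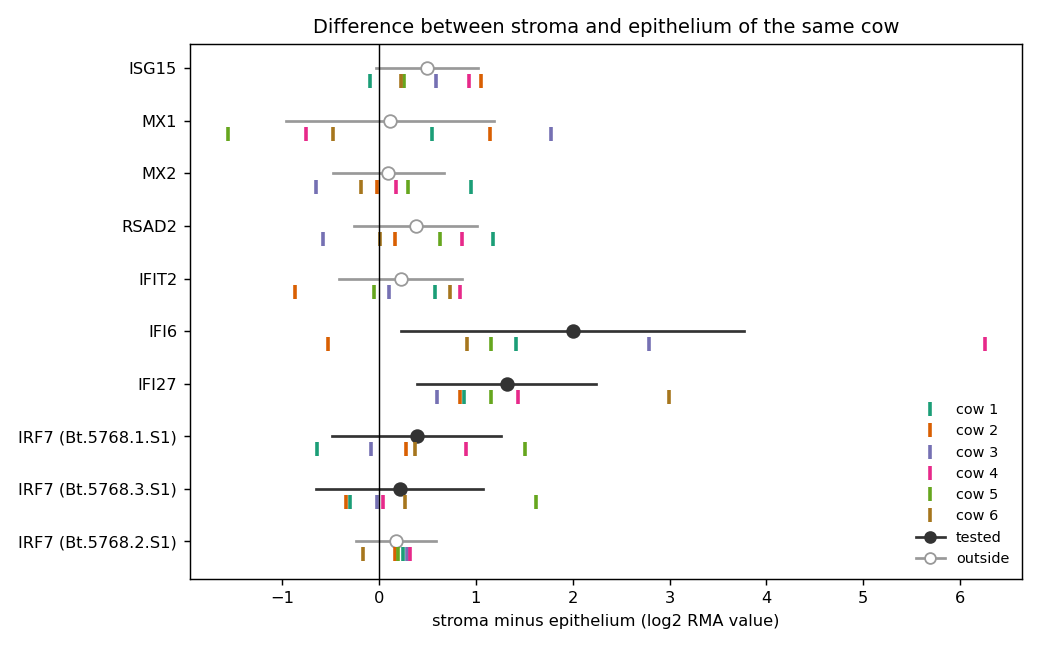
Stroma minus epithelium (horizontal axis, log2 RMA value) for each probe set. Circles are means of 6 cows with the 95% interval from limma, black for the 4 tested and open grey for the 6 outside, and ticks are the cows. The intervals of IFI6 and IFI27 lie above 0 before adjustment for all probe sets tested, and the cow 4 tick of IFI6 stands at 6.25.

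Cows differed within a tissue, and not the same cows for every member. For MX1 the SD over the 6 stroma arrays was 0.93, beside a difference between tissues of 0.11. In stroma, cow 4 had the highest of the 6 arrays for 6 of the 10 probe sets (ISG15, RSAD2, IFIT2, IFI6 and 2 of IRF7), against 17.6% of all 24016 probe sets. The cow 4 stroma exceeded the mean of the other 5 stroma arrays by 4.86 for IFI6, 1.12 for RSAD2, 0.74 for the brightest IRF7 probe set, 0.63 for IFIT2 and 0.34 for ISG15. For MX1, MX2 and IFI27 it lay below that mean, at -0.69, -0.32 and -0.24. Values of RSAD2, IFIT2, ISG15 and the third IRF7 probe set, also in this tally, are near or below the array medians, where 1 array can be the highest by little. Among the 48 probe sets of other interferon-stimulated effectors, cow 4 had the highest stroma array for 12. Among the 24 of them that were tested, cow 4 had the highest for 5 (20.8%) and cow 3 for 6. The median deviation of the cow 4 stroma from the stroma mean was 0.01 over the 48 and -0.17 over the 24. For the 10 member probe sets, no cow stood out in epithelium as cow 4 did in stroma, and the highest count was 3 of 10, in cow 3. The epithelium of cow 4 was the highest for 1 of 10, so the pattern of its stroma was not seen in its epithelium. This tally was made after the values were seen and carries no test.

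**Figure D3:**
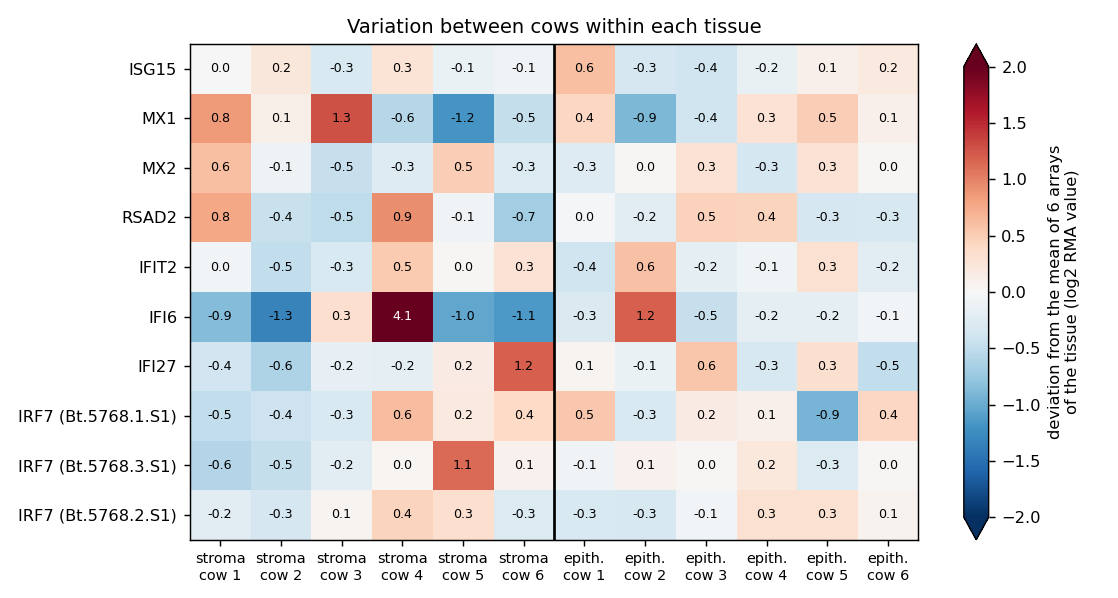
Deviation of each array from the mean of the 6 arrays of its tissue (colour and number, log2 RMA value) for the 10 probe sets, with stroma arrays on the left and epithelium arrays on the right. Cow 4 stroma is red for IFI6 and RSAD2 and blue for MX1, and cow 3 stroma is the highest for MX1.

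Other genes of the interferon pathway passed at rates no higher than the array as a whole. Of 142 other genes on 7 lists, 74 have a probe set with a single symbol and 49 were tested in their brightest probe set. A single gene passed with more signal in stroma, 0 passed in epithelium, and 48 missed the threshold (limma, adjusted p under 0.05). At an unadjusted p under 0.05 there were 3 in stroma (6.12%) and 7 in epithelium (14.3%), beside 8.88% and 14.6% of all tested probe sets, so these counts are not a result about the pathway. The median difference of the 49 was -0.13, beside -0.18 over all tested probe sets. ICAM1, an adhesion molecule for leukocytes that interferon gamma and other cytokines induce, was the one that passed. It measured 7.22, 7.12, 7.96, 6.83, 6.75 and 6.76 in the stroma of cows 1 to 6, and 6.57, 2.18, 3.96, 5.29, 5.35 and 5.20 in their epithelium. Every stroma array lay above every epithelium array, and the difference was 2.34 (standard error 0.61, adjusted p = 0.0455). The call was lost when any 1 of the cows was left out (adjusted p from 0.0550 to 0.110) and in the fit with no filter (adjusted p = 0.101). The other 5 tested genes of its list, the interferon gamma-induced genes, went the other way and did not pass. Their differences were -0.85 for GBP5, -0.97 for IFI30, -0.88 for PSME1, -0.44 for PSME2 and -1.04 for WARS1 (limma adjusted p = 0.162). The median difference of the 6 genes, ICAM1 included, was -0.86. The 4 other genes of this list on the array were outside the tested set, and 0 passed in the limma fit of all 24016 probe sets. At an unadjusted p under 0.05 there was 1, GBP1, with more signal in stroma in all 6 cows. It measured 2.80 to 5.82 in stroma and 1.46 to 2.74 in epithelium, with a difference of 1.60 (adjusted p = 0.0648). Of all 24016 probe sets, 8.07% met that p with the larger mean in stroma and 8.95% in epithelium. The endothelial marker means ran from 6.38 to 7.34 in stroma and from 3.01 to 3.63 in epithelium. The fibroblast, macrophage and B and plasma cell marker means were also higher in stroma in all 6 cows. The part of these cell types in the ICAM1 difference was not tested.

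Among the effectors, 0 of 23 tested genes passed (4 at an unadjusted p under 0.05), a count to be read beside the same array-wide shares. IFITM1, which blocks viral entry at membranes, and LAP3 are named because they were seen to lie nearest the threshold. IFITM1 measured 4.64 to 5.73 in stroma and 3.50 to 4.45 in epithelium. Its tissues did not overlap, like those of IFI27, and its difference was 1.35 (standard error 0.36, limma adjusted p = 0.0503). It passed in 5 of 14 alternative fits, with adjusted p between 0.0117 and 0.158. LAP3, a leucine aminopeptidase, had a difference of -1.76 in the other direction (standard error 0.47, adjusted p = 0.0505). It passed in 5 of 15, with adjusted p between 0.0233 and 0.136. The other 11 effectors on the array were outside the tested set, and 9 of them had both means below the array medians, among them OAS1X, IFI44 and CXCL10. In the limma fit of all 24016 probe sets, 0 of the 11 passed. At an unadjusted p under 0.05 there was 1, PARP9, with a difference of -1.15 (adjusted p = 0.118). Of all 24016 probe sets, 8.07% met that p with the larger mean in stroma and 8.95% in epithelium.

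The enzymes that attach and remove ISG15 did not pass, in 0 of 4 tested genes (1 at an unadjusted p under 0.05, UBE2L6). Over all tested probe sets, 4.54% passed in stroma and 4.76% in epithelium, and 8.88% and 14.6% met that unadjusted p, so nothing is read from these counts. UBA7, the activating enzyme, averaged 5.65 ± 0.68 in stroma and 5.63 ± 0.55 in epithelium (SD, n = 6 each). UBE2L6, the conjugating enzyme, measured 6.12, 6.46, 6.22, 3.17, 2.23 and 3.44 in the stroma of cows 1 to 6, and 6.31, 5.70, 8.17, 7.42, 7.81 and 8.20 in their epithelium. The stroma of cows 4, 5 and 6 was the dim part, the difference was -2.66 (standard error 0.85) and it did not pass (adjusted p = 0.0934). It passed with tissue as the sole term (adjusted p = 0.0458) and with cow as a random block (0.0373), and the difference was -1.41 without cows 5 and 6 (adjusted p = 0.397). As for MX1, those 3 stroma arrays were the ones with the most control RNA, and its part was not tested. USP18, the protease that removes ISG15, averaged 6.04 ± 1.04 in stroma and 5.61 ± 0.53 in epithelium (adjusted p = 0.640). The ligases HERC5 and HERC6 were outside, with values up to 2.35 in stroma and 2.16 in epithelium.

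Interferons themselves were at the dim end of the arrays. IFNAC, IFNB1, IFNG and IFNT2 ran up to 3.18 in stroma and 2.71 in epithelium, all 4 had both means below the array medians, and 0 passed in the fit of all probe sets (0 at an unadjusted p under 0.05). Receptor genes were among the tested ones. IFNAR2, a chain of the type I receptor, averaged 8.45 ± 0.84 in stroma and 7.30 ± 2.20 in epithelium (SD, n = 6 each), where cow 3 stood at 2.91. IFNAR1, its partner chain, averaged 4.29 ± 2.05 in stroma and 5.94 ± 0.50 in epithelium, and the stroma of cow 4, at 1.42, was the dimmest of the 12. Neither passed (limma, adjusted p = 0.336 for IFNAR2 and 0.154 for IFNAR1). Of 6 tested genes of the receptors, JAK kinases and IRF9, 0 passed (1 at an unadjusted p under 0.05). Of 4 other interferon regulatory factors 0 passed (0), and of 7 sensors of nucleic acid 0 passed (2). Over all tested probe sets, 8.88% met that p in stroma and 14.6% in epithelium. Outside the tested set, STAT2 was brighter in stroma in all 6 cows, and MAVS was brighter in epithelium in all 6. Their differences were 1.17 (limma fit of all 24016 probe sets, adjusted p = 0.156) and -1.05 (adjusted p = 0.0747). They were 1 of 1 and 1 of 3 outside genes of their lists at an unadjusted p under 0.05, beside 8.07% and 8.95% of all 24016.

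**Figure D4:**
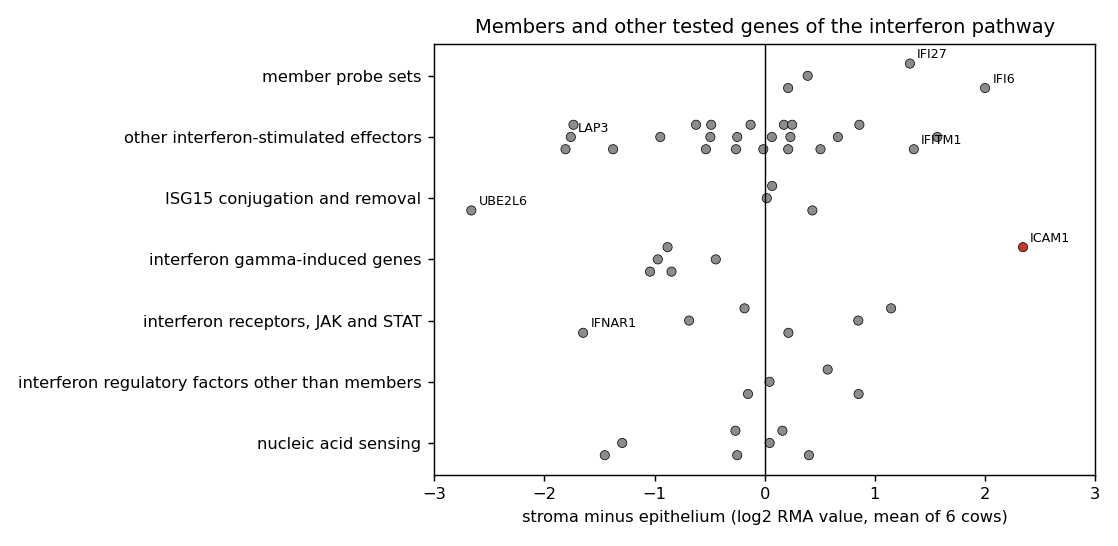
Stroma minus epithelium (horizontal axis, log2 RMA value, mean of 6 cows) for the 4 tested member probe sets and the tested genes of 6 lists of the interferon pathway. The red point, ICAM1, passed at an adjusted p under 0.05, unlike the grey points. IFI27 and IFI6 lie on the right, at 1.32 and 2.00, and UBE2L6 lies farthest to the left, at -2.66.

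Genes were ranked by correlation with the mean of IFI6, IFI27 and the brightest IRF7 probe set, after the mean of each tissue was removed, over 12 arrays and 5219 genes. The values were not scaled, so IFI6 weighed most, with a stroma SD of 2.07 against 0.64 for IFI27 and 0.46 for IRF7. The ranking therefore mainly follows IFI6 and does not stand for the members as a group. The highest were ARID5A (Pearson r = 0.94), TMX1 (0.89), TALDO1 (0.83), STRN (0.83), LGR4 (0.82), CHFR (0.81), COL26A1 (0.81), PSMD4 (0.81), NARS2 (0.81) and PDP1 (0.80). None of the 10 is on the pathway lists. Without cow 4, which has the high IFI6 value, they ran from 0.18 to 0.93 over 10 arrays, and 1 of the 10 (PDP1) remained among the 10 highest ranks. The arrays share their cows, and no p is given.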

How the data were processed

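Stroma and epithelium captures of 6 cows were measured on 12 Bovine GeneChips. The deposited log2 values were made by the authors with RMA, which includes quantile normalization, over a larger set of arrays of which these 12 are part. Such values hold no detection calls, and dim probe sets are compressed towards the background. Probe sets were named from the platform annotation, in which 13318 probe sets have exactly 1 gene symbol, 86 several and 10724 none. Tissue and cow were fixed terms in lmFit and eBayes (limma 3.58.1, R 4.3.3), where the study fitted tissue alone. Controls were removed, and the probe sets of highest mean (3.57 or more) were tested, in the number the study kept by detection calls, with Benjamini-Hochberg adjustment over all of them. Same-numbered captures come from the same animal, and their deviations from the tissue means correlated at 0.026 to 0.201 over the tested probe sets, each above its mean with captures of other cows. The number of arrays limits the precision.

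The members and lists were chosen with earlier results of these data known. The rule named all members, list genes past the threshold and the 10 genes with the highest correlation with the mean of the tested members. The other list genes named (IFITM1, LAP3, UBA7, UBE2L6, USP18, HERC5, HERC6, IFNAR1, IFNAR2, OAS1X, IFI44, CXCL10, GBP5, WARS1, IFI30, PSME1, PSME2, PARP9, GBP1, STAT2, MAVS and the interferons) were chosen after their values were seen, for their role, their direction or their closeness to the threshold. Marker lists covered luminal epithelium, fibroblasts, endothelium, macrophages, T and NK cells, B and plasma cells, all leukocytes and plasmacytoid dendritic cells, of which the last had 3 tested genes, with TCF4 and NRP1 (also genes of other stromal cells) higher in stroma and IRF7 a member itself. Alternatives were fits without the block or with a random block, a prior with an intensity trend, other filters (none, the brightest 5000, above the array median on at least 8 arrays), quantile normalization again or centring of the arrays, leaving out each cow or cows 5 and 6 together, and averaging a gene's probe sets. The fit was tested on simulated data.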

Additional observations from a re-analysis of the deposited data

Results flagged for a closer look

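In groups of 6 arrays, a sample was set apart when its gap to the nearest other array took an unusually large share of the range (Dixon's 95% criterion), which chance meets in about 1 group of 20. Of 22 groups checked, 2 met it, both for IFI6. In stroma, IFI6 measured 8.66 in cow 4, where the other 5 stroma arrays lay between 3.27 and 4.94. In epithelium, IFI6 measured 3.80 in cow 2, where the other 5 epithelium arrays lay between 2.15 and 2.55. No cause was tested for either value.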

How the results depend on the processing

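No alternative reversed the difference of IFI27 (0.94 to 1.49 over 15 alternatives, adjusted p from 0.0276 to 0.247) or of IFI6 (1.15 to 2.51 over 14, adjusted p from 0.116 to 0.278). One member probe set, IFI27, passed in stroma with no replicate block (1 call, adjusted p = 0.0364) and with a random block (1 call, adjusted p = 0.0276), and the block changed no other member's call. Leaving out 1 cow gave differences of -0.220 to 0.448 for MX1 (below 0 without cow 2 or 3), -0.0741 to 0.246 for MX2 (below 0 without cow 1) and -0.0700 to 0.323 for the second IRF7 probe set (below 0 without cow 5), which was -0.155 without cows 5 and 6. Over all tested probe sets, 455 were higher in stroma and 477 in epithelium, and after centring on the median 516 and 361. The brightest 5000 probe sets gave 239 and 274, leaving out 1 cow 331 to 450 in stroma and 267 to 404 in epithelium, and leaving out cows 5 and 6 gave 245 in epithelium. Of the other pathway genes, 1 in stroma and 0 in epithelium passed. The counts were 2 and 1 without the block, 2 and 3 with a random block, 2 and 1 after quantile normalization again, 2 in stroma after centring, 0 in stroma for probe sets bright on at least 8 arrays, 1 in epithelium for the brightest 5000 and 1 in epithelium without cows 5 and 6. Leaving out 1 cow gave 0 to 1 in each tissue. No member is among the brightest 5000, so that setting gave no value for them. The cause of these shifts was not tested. The number of cows and dim signals limit what could be called.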
